A study of Homo sapiens with 12 samples.

Results

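TFK1, an established human cell line from a cancer of the bile duct (cholangiocarcinoma), was compared with and without nab-paclitaxel, the albumin-bound form of the microtubule drug paclitaxel. The 3 libraries of cells given nab-paclitaxel at 1.62 ng/ml were set against the 3 libraries of untreated control cells, over every gene with a mean of at least 1 FPKM (fragments counted per length of gene and per size of library, the size here being a median-ratio factor over all libraries rather than the fragment total) across all 12 libraries of the series. This rule kept 13609 of 58735 genes, of which 11227 were protein coding. The series holds 2 further groups of 3 libraries, cells given radiation of 6 Gy and cells given both, and it asks how the drug makes cholangiocarcinoma cells more sensitive to radiation. All 4 groups were the same wild-type line in RPMI medium with serum, and RNA was taken 24 h after treatment. The data thus cover 1 line at 1 dose and 1 time. The replicates are labelled biological, and whether they were separate cultures is not stated, so p-values measure the spread between these libraries.

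Paclitaxel binds beta-tubulin within the microtubule and stabilises it, so that the spindle of a dividing cell cannot be remodelled and the spindle checkpoint holds the cell in mitosis. Cells that leave such a mitosis without dividing properly can arrest through p53, die, or carry misplaced chromosomes in micronuclei. Tubulin genes are also known for a feedback at the level of their mRNA. When free tubulin dimers are plentiful, the adaptor TTC5 recognises tubulin chains as they are made and their mRNAs are degraded, and when dimers are taken up into polymer the mRNAs are spared.

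A gene rose or fell where limma, fitted over all 13609 genes and the 4 groups, gave a Benjamini-Hochberg adjusted p under 0.05. Changes are differences of log2(FPKM + 1) ± SE, which understate the change of genes with low values, and fold values are ratios of mean FPKM. The libraries held 14840283 to 17992242 fragments each. Control 2, nab-paclitaxel 1 and combination 2 stood apart from their groups on principal component 2, at 30.6, 28.6 and 3.64, each the highest of its group, and counts without these 3 libraries are given with the gene groups. The same 3 were low in genes rich in G and C bases (GC). Deviations from each gene's mean were taken as medians in the richest and poorest of 5 groups of protein-coding genes by GC. Richest minus poorest was -0.52, -0.27 and -0.29, against -0.06 to 0.31 in the other libraries. The cells carried biliary epithelial markers, with 8 of 15 at a mean of at least 1 FPKM and a summed level of 732 to 934 FPKM in control and 1216 to 1376 in nab-paclitaxel libraries. KRT19, which also belongs to the keratins described later, took the largest share of that sum. Of 18 macrophage, 12 fibroblast, 10 hepatocyte, and 15 lymphocyte and endothelial markers, 1, 2, 1 and 0 reached a mean of 1 FPKM. Summed macrophage markers lay at 2.59 to 3.33 FPKM in control and 2.22 to 2.86 in nab-paclitaxel libraries, and C1QA, C1QB and C1QC were at 0 throughout.

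With the drug alone 1200 genes changed (8.82% of those tested), of which 736 rose (5.41%) and 464 fell (3.41%). The rising share grew with expression. Among protein-coding genes ranked by mean FPKM in 5 groups of like size, 1.29% rose in the lowest group. In the highest, from 17.0 FPKM up, 14.6% rose. The median members of the proteasome, heat shock, glycolysis, respiratory chain, actin and CCT lists below lie in that highest group. Those of the tubulin, p53, AP-1, peroxide enzyme, fatty acid synthesis, ATF4, aminoacyl-tRNA synthetase and endoplasmic reticulum lists lie there too. So do those of the NRF2, S100, secretory transport, ribosome biogenesis, lysosome, epithelial-mesenchymal, metallothionein, ribosomal protein and mitochondrially encoded lists. The changes were small. The median size of a called change was 0.48 on the log2 scale, and only 9 of the rises and 55 of the falls reached 1. In all 1200 genes the 3 treated libraries all lay above or all below the 3 controls, which was so for 26.1% of all tested genes. The 61.3% of calls that were rises became 49.3% (539 rose, 555 fell) with size factors over the tested genes, 48.3% (381 and 408) under quantile normalization and 45.7% (530 and 629) with limma's voom on recovered fragment numbers. At an unadjusted p under 0.05, 2181 tested genes were higher (16.03%) and 1430 lower (10.51%), the shares against which such counts below are to be read. The median change of all tested genes was 0.037, and it was 0.001 with size factors, 0.018 under quantile normalization and 0 by voom.

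The number called differed widely with the libraries in the fit, which set both the group means and the shared spread. In a fit on the 6 libraries of control and nab-paclitaxel alone it was 8 (3 rose, 5 fell), all 8 among the 1200. Without the 3 libraries that stood apart it was 1836, with 8.79% of tested genes rising and 4.7% falling, and 954 of these genes were among the 1200. Leaving out single libraries gave 524 (control 3) to 1181 (combination 2). In none of the alternatives did any of the 1200 genes change sign. Leaving out libraries or changing the pseudocount could not have shown such a change, because treated and control libraries did not overlap in any of these genes. Changing the filter, limma's trend setting, the replicate block or the groups fitted leaves each gene's change as it was. Only other scalings, voom and removal of the length or GC trend could have shown it.

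The direction of change followed gene length, with protein-coding genes ranked by length and divided into 5 groups of like size. Gene length here is the deposited length by which FPKM was divided, not the span of the gene on the chromosome. Among those in the shortest group (207 to 2952 bases), 297 rose and 35 fell, with a median change of 0.22. In the longest group (8222 to 42341 bases) 32 rose and 111 fell, with a median of -0.09, and the groups between lay in order. In irradiated cells the drug gave the same order, from 0.16 to -0.05, whereas the groups lay within 0.00 and -0.03 for radiation against control. Single libraries differed in this trend, taken as the median deviation from each gene's mean, longest minus shortest group. It was 0.04, 0.26 and 0.12 in controls 1, 2 and 3 and -0.32, -0.15 and -0.02 in nab-paclitaxel libraries. Combination libraries had -0.19, 0.03 and -0.12. Without the 3 libraries that stood apart the drug medians of the shortest and longest groups were 0.14 and -0.03. With each library's trend on gene length removed, an alternative added after seeing the data, 436 genes rose (3.2% of tested genes) and 434 fell (3.19%), and 716 of these genes were among the 1200. Of the genes named below and not otherwise marked, TUBG1, TNFRSF21, NFKB2, HLA-E, EZR and SNAI1 were not called once that trend was removed. The part of gene length in the results was otherwise not tested, so counts with the length trend removed are given with the gene groups.

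**Figure D1:**
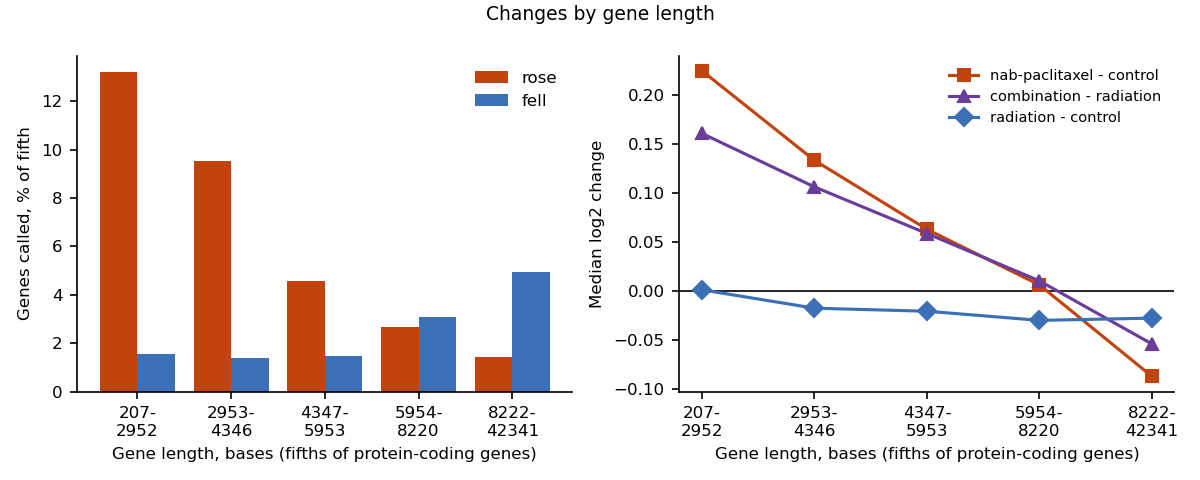
Left, share of protein-coding genes of each of 5 length groups that rose or fell with nab-paclitaxel against control. Right, median log2 change of each group for nab-paclitaxel minus control, combination minus radiation and radiation minus control; both drug contrasts fall from the shortest to the longest group (0.22 to -0.09 and 0.16 to -0.05).

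Tubulin mRNAs rose together. The main beta-tubulin gene TUBB, which encodes the isotype most widely used in dividing cells, had 126, 127 and 129.5 FPKM in control libraries 1, 2 and 3 and 210.3, 192 and 199 in nab-paclitaxel libraries 1, 2 and 3. TUBB4B, the other abundant beta-tubulin gene, had 113, 88.2 and 110.4 FPKM in control and 199.7, 203 and 188 with the drug. In both genes every treated library lay above every control library, by 1.57-fold for TUBB (0.65 ± 0.07, adjusted p = 8.21e-04) and 1.90-fold for TUBB4B (0.92 ± 0.11, adjusted p = 0.00134). The alpha-tubulin genes, whose products pair with beta-tubulin in the dimer, moved alike. TUBA1B went from 41.2, 30.9 and 40.5 to 60.1, 70.4 and 63.9 FPKM and TUBA1C from 22.8, 24.5 and 24.03 to 48.2, 38.9 and 40.5 FPKM. TUBA1A went from 25.2, 27.3 and 23.1 to 56.7, 43.3 and 42 FPKM. TUBA4A, the lowest of the 4 alpha-tubulin genes, went from 6.51, 6.71 and 6.601 to 15.5, 11.3 and 11.6 FPKM. Nab-paclitaxel library 1 was the highest of its group in TUBA1A, TUBA1C and TUBA4A, and the remaining 2 treated libraries still lay above all controls.

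Of the 10 alpha- and beta-tubulin genes tested, 9 rose, with a median of 0.79 against 0.04 for all tested genes. TUBB2A had the largest change (1.04 ± 0.17, 2.15-fold), and TUBB6 (0.63 ± 0.12) and TUBB4A (0.55 ± 0.14, called in 14 of 26 alternatives) also rose. TUBB3, the isotype of neurons that is known for its link to taxane resistance in tumours, was at 1.38, 1.16 and 1.78 FPKM in control and 1.07, 1.68 and 1.505 with the drug. Those values overlapped (-0.01 ± 0.12, adjusted p = 0.963). The count was 9 without the 3 libraries that stood apart and 8 with the length trend removed. TUBA1A, TUBA1B and TUBA1C, and TUBB2A and its copy TUBB2B, are so alike in their coding parts that reads can be split between them, so values of single genes are uncertain.

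**Figure D2:**
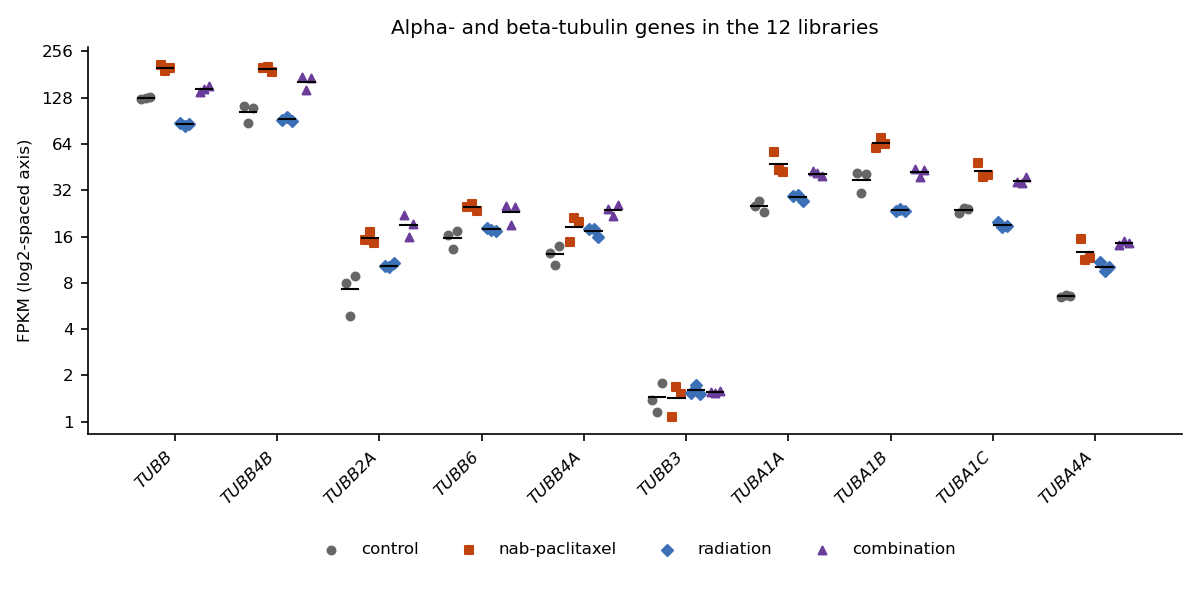
FPKM of the 10 tested alpha- and beta-tubulin genes on a log2-spaced axis, 1 point per library and a bar at the mean of each group of 3. In TUBB the nab-paclitaxel libraries sit at 192 to 210.3 against 126 to 129.5 in control, and in TUBB3 the same groups, at 1.07 to 1.68 and 1.16 to 1.78, overlap.

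The other genes of the microtubule system moved less. Of 13 genes of the gamma-tubulin ring, which seeds new microtubules, 1 rose, TUBG1 (0.45 ± 0.10), with a list median of 0.06, and 0 did with the length trend removed. None of the 9 folding cofactors and autoregulation genes, TTC5 included, passed by limma on log2(FPKM + 1) or by voom, with 2 at an unadjusted p under 0.05 (16.03% of all tested genes were higher at that threshold). The CCT chaperonin, which folds newly made tubulin and actin, and prefoldin, which hands them over, had positive values in all 14 tested members with a median of 0.35. Of these, 3 rose, namely TCP1 (0.43 ± 0.11, called in 15 of 26 alternatives), CCT2 (0.41 ± 0.09) and CCT5 (0.32 ± 0.08, called in 9 of 26 alternatives). The number rising was 8 without the 3 libraries that stood apart, 3 with the length trend removed and 0 under quantile normalization. Among 33 microtubule-associated and modifying genes, the severing enzyme KATNA1 (0.48 ± 0.08) and the stathmin STMN3 (0.42 ± 0.09) were among 3 that rose. The stabilising protein MAP1B was the 1 that fell (-0.45 ± 0.11, called in 12 of 26 alternatives). These were 9.09% and 3.03% of the list, near the 5.41% and 3.41% of all tested genes, and the list median was 0.05. Of these 33, 5 rose and 1 fell without the 3 libraries that stood apart, and 2 rose and 1 fell with the length trend removed.

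Genes of mitosis rose, though not all of them. CDC20, which activates the anaphase-promoting complex and is held back by the spindle checkpoint, had 22.8, 20.4 and 22.9 FPKM in control and 36.4, 38.8 and 38.3 with the drug. The groups were well apart (1.72-fold, 0.76 ± 0.08, adjusted p = 8.21e-04). The checkpoint kinase BUB1 went from 6.36, 7.698 and 5.93 to 10.9, 9.53 and 10.5 FPKM (0.57 ± 0.10). KIF20A, a kinesin of cytokinesis, went from 4.63, 3.65 and 3.71 to 6.82, 7.66 and 8.03 FPKM (0.77 ± 0.11). In both genes all treated libraries were higher. TPX2, which drives spindle assembly (0.38 ± 0.07), PLK1, the polo-like kinase of mitotic entry (0.46 ± 0.09), and the cyclin CCNB2 (0.49 ± 0.10) rose as well. Of 42 mitotic genes 16 rose and 2 fell, with a median of 0.33. The 2 that fell encode very large kinetochore proteins, CENPF (-0.54 ± 0.11) and CENPE (-0.55 ± 0.15, called in 9 of 25 alternatives). The counts were 16 and 2 without the 3 libraries that stood apart and 12 and 1 with the length trend removed. In bulk RNA a larger share of cells in mitosis and more mRNA per cell cannot be told apart.

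Promoters of this group are shown because many share a cell-cycle element. The letters TTTGAA, the core of the cell cycle genes homology region (CHR) through which the DREAM and B-MYB complexes act, were searched on both strands in RefSeq promoters of GRCh38.p14, from 250 bases before to 50 bases after the RefSeq gene start. Such a promoter was found for 9261 of the 11227 protein-coding tested genes (82.5%). TTTGAA was present in 22 of 35 promoters of the mitotic list (62.9%), in 6 of the 14 belonging to called members (42.9%), in 9.05% of tested genes and in 15.4% of all 27305 promoters. Over all called genes it was present in 9.85% of those that rose and 13.5% of those that fell. The following windows, with the match in capitals, lie at chr1:43358894-43358943 (CDC20), chr15:59105095-59105144 (CCNB2) and chr16:23678838-23678887 (PLK1), all on the + strand, with matches starting 65, 29 and 29 bases before the gene start.
CDC20: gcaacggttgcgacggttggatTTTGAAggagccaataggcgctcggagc
CCNB2: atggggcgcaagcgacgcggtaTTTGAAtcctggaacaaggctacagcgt
PLK1: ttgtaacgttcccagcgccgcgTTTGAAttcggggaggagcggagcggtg
The CDC20 promoter held 2 matches, of which 1 is marked. A match describes these letters and is no evidence of binding in these cells.

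DNA replication genes moved in the same direction with smaller values. Of 33 tested, 7 rose and 0 fell, with a median of 0.17 and 9 rising at an unadjusted p under 0.05. The cyclin CCNE1, which drives entry into S phase, went from 7.75, 6.36 and 6.62 to 10.2, 11.2 and 9.96 FPKM (0.54 ± 0.09). The clamp loader subunit RFC2 (0.45 ± 0.08), the helicase subunit MCM6 (0.43 ± 0.09) and the sliding clamp PCNA (0.55 ± 0.13) rose too. The number was 3 with the length trend removed and 8 without the 3 libraries that stood apart, and neither RFC2 (adjusted p = 0.0637) nor PCNA (adjusted p = 0.0619) was called with the length trend removed.

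Targets of p53, the transcription factor that answers DNA damage and prolonged mitosis, rose in part. SFN, which encodes the 14-3-3 sigma protein that keeps cyclin B and CDK1 out of the nucleus, had 23.1, 16.2 and 22.6 FPKM in control and 58.7, 70.8 and 54.8 with the drug. It changed 2.98-fold (1.54 ± 0.16, adjusted p = 8.21e-04) and was called in 26 of 26 alternatives. CDKN1A, the p21 inhibitor of cyclin-dependent kinases, had 122, 108 and 119.8 FPKM in control and 199, 204 and 185 with the drug (0.74 ± 0.08). The kinase PLK2 went from 15.1, 14.2 and 14.4 to 26.3, 22.6 and 23.9 FPKM (0.70 ± 0.07). In each of these genes the groups were apart by more than their own range. The mitochondrial reductase FDXR (0.79 ± 0.10) and the antiproliferative factor BTG2 (0.68 ± 0.09) rose too. MDM2, the ubiquitin ligase that limits p53, was at 12.3, 16.6 and 12.6 FPKM in control and 13.7, 12.6 and 12.98 with the drug (-0.06 ± 0.12, adjusted p = 0.788), and the secreted factor GDF15 was at 1186, 1019 and 1296 FPKM in control and 1103, 1086 and 989.5 with the drug (-0.13 ± 0.12, adjusted p = 0.499). Both overlapped between groups. Of 30 tested p53 targets 9 rose and 0 fell, with a median of 0.22 and 13 rising at an unadjusted p under 0.05. The number rising was 14 without the 3 libraries that stood apart and 7 with the length trend removed.

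Among 15 genes of the BCL2 family, which sets the threshold for cell death at the mitochondrion, 3 rose and 0 fell. The killer protein BIK had the largest change, from 6.98, 8.13 and 7.91 to 13.4, 13.7 and 10.1 FPKM (0.62 ± 0.12). The pore former BAK1 (0.34 ± 0.08) and the survival factor MCL1 (0.31 ± 0.08), which acts against it, were called in 12 of 26 and 8 of 26 alternatives. Of the 15, 4 rose without the 3 libraries that stood apart and 1 with the length trend removed. Of 14 death receptors and ligands, TNFRSF21 (0.35 ± 0.07) and the T cell costimulator TNFSF9 (0.39 ± 0.09) rose, and 5 were higher at an unadjusted p under 0.05. Of the 14, 5 rose without the 3 libraries that stood apart and 1 with the length trend removed.

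DNA repair and checkpoint genes, which bear on the series' question about radiation, are given next beside the 8.82% of all tested genes that were called. Of 26 genes of homologous recombination and the Fanconi pathway 0 rose and 1 fell, with a median of -0.07. At an unadjusted p under 0.05 these counts were 1 and 4, and voom called 0 and 2. BRCA2, which acts in the repair of broken DNA by recombination, had 2.48, 3.27 and 2.27 FPKM in control and 1.41, 1.18 and 1.63 with the drug. The fall (-0.60 ± 0.12, adjusted p = 0.0159) was from a low level without overlap. The break-sensing kinase ATM was the only called gene among 21 of checkpoint signalling, going from 3.78, 4.84 and 3.86 to 2.31, 2.39 and 3.07 FPKM (-0.52 ± 0.12), and it was not called with the length trend removed (adjusted p = 0.0822). Of 14 end joining genes, XRCC6, which encodes the Ku70 protein that caps broken ends, went from 106, 88 and 96.2 to 149, 139.9 and 136 FPKM (0.55 ± 0.08). PARP1 rose (0.41 ± 0.09) and RIF1, which favours end joining over resection, fell (-0.50 ± 0.14, called in 11 of 26 alternatives). End joining counts were 2 and 1 without the 3 libraries that stood apart and 2 and 0 with the length trend removed, and those of homologous recombination and Fanconi genes were 0 and 1 in both.

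Part of the interferon-stimulated genes rose. ISG15, a ubiquitin-like protein attached to others after an interferon signal, had 59.3, 41.9 and 52.9 FPKM in control and 116, 113 and 86.5 with the drug. That was 2.05-fold (1.02 ± 0.15, adjusted p = 0.00400), with no overlap. HERC5, the ligase that attaches ISG15, went from 4.69, 5.38 and 5.15 to 11.7, 8.22 and 7.95 FPKM (0.74 ± 0.12). OASL, a relative of the oligoadenylate synthetases, went from 2.77, 2.37 and 2.73 to 5.44, 4.72 and 5.198 FPKM (0.76 ± 0.08), and IFIT2, which binds foreign RNA, from 1.44, 1.37 and 1.31 to 2.99, 2.35 and 2.25 FPKM (0.57 ± 0.09). The membrane proteins IFITM1 (0.72 ± 0.13), IFITM2 (0.95 ± 0.10) and IFITM3 (0.53 ± 0.10), which keep viruses from fusing and whose genes are near copies of each other, rose too. Of 28 tested interferon-stimulated genes 12 rose and 0 fell (16 and 1 at an unadjusted p under 0.05, 12 and 1 by voom), with a median of 0.35. The counts were 11 and 1 without the 3 libraries that stood apart and 12 and 0 with the length trend removed.

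These promoters are shown because the group shares the binding site of interferon-activated factors. The interferon-stimulated response element was searched as GAAANNGAA on both strands in the same promoter windows. It was present in 15 of 22 promoters of the list (68.2%) and in 6 of the 9 belonging to called members (66.7%). Its share was 6.19% in tested genes, 7.3% in all genes that rose, 7.17% in all that fell and 8.29% in all promoters. The windows below lie at chr1:1013374-1013426 on the + strand (ISG15), chr10:89392499-89392551 on the + strand (IFIT1), chr11:313978-314030 on the + strand (IFITM1), chr11:320865-320917 on the - strand (IFITM3) and chr4:88457024-88457076 on the + strand (HERC5). Each window has 1 match in capitals. These start 101, 102, 40, 35 and 73 bases before the RefSeq gene start, and those of IFIT1 and HERC5 read as the reverse complement. The promoters held 3, 2, 2, 2 and 3 matches in all. Unmarked ones stand wholly or partly in lower case in the windows of ISG15, IFIT1 and IFITM3. IFIT1 changed by 0.54 ± 0.10.
ISG15: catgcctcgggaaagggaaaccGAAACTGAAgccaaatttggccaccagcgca
IFIT1: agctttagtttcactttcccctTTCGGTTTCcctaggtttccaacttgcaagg
IFITM1: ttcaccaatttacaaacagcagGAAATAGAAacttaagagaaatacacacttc
IFITM3: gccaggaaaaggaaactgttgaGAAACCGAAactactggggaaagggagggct
HERC5: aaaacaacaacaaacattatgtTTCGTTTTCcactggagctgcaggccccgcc
The share with a match was close in called members and in the list as a whole.

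None of 11 tested nucleic acid sensors and their adaptors, and none of 8 tested interferons and receptors, passed by limma on log2(FPKM + 1) or by voom. At an unadjusted p under 0.05, 1 sensor and 3 interferon or receptor genes were higher, beside 16.03% of all tested genes. Without the 3 libraries that stood apart 1 of each list rose, and with the length trend removed 0 did. Of 13 genes of MHC class I and peptide loading 4 rose, among them the loading factor TAPBP, from 11.5, 9.42 and 12.4 to 15.7, 20.6 and 19.6 FPKM (0.69 ± 0.12). The peptide transporter TAP1 (0.55 ± 0.14, called in 10 of 26 alternatives), the immunoproteasome subunit PSMB9 (0.61 ± 0.14, called in 15 of 25 alternatives) and HLA-E (0.46 ± 0.11) were the remaining 3, and HLA genes share reads with their copies. The counts were 4 and 1 without the 3 libraries that stood apart and 1 and 1 with the length trend removed. Of 20 NF-kB pathway genes 4 rose, the inhibitor NFKBIE most (0.67 ± 0.10) and the subunit NFKB2 less (0.44 ± 0.11), with 7 rising without the 3 libraries that stood apart and 1 with the length trend removed. None of 13 tested genes for signals to macrophages passed by limma or voom, with 2 at an unadjusted p under 0.05 and a median of 0.15. LGALS3, a secreted galectin of that list, was at 30.9, 24.9 and 27.2 FPKM in control and 37.8, 34.6 and 31.3 with the drug (0.31 ± 0.09, adjusted p = 0.0593).

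**Figure D3:**
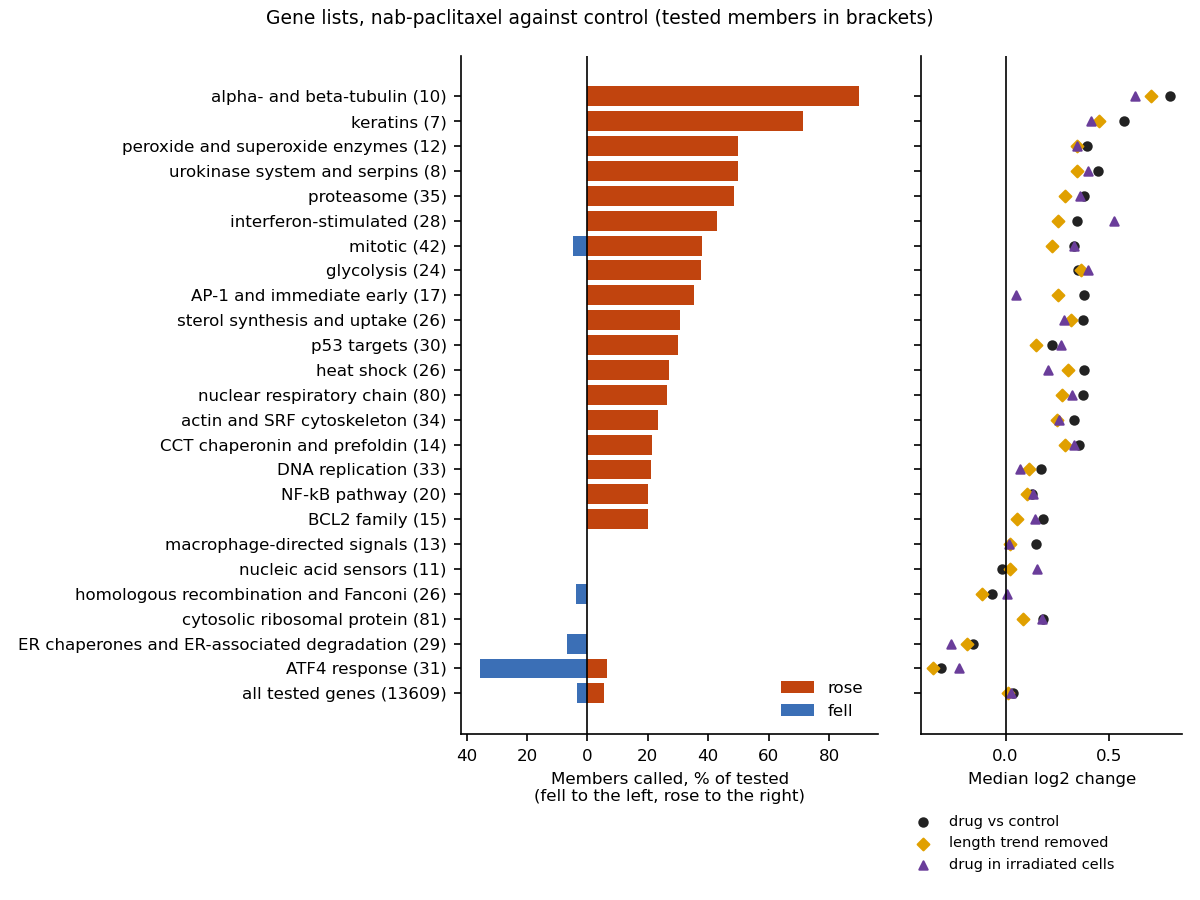
Left, share of the tested members of each gene list that rose or fell with nab-paclitaxel against control (number tested in brackets). Right, median log2 change of the tested members against control, with the length trend removed, and for the drug in irradiated cells. Alpha- and beta-tubulin genes stand highest (9 of 10 rose, median 0.79) and the ATF4 list lowest (11 of 31 fell, median -0.31), beside 5.41% and 3.41% for all tested genes.

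Part of the amino acid response genes fell. They are driven by ATF4, the transcription factor made when amino acids run short or proteins misfold in the endoplasmic reticulum. ASNS, asparagine synthetase, had 11.98, 15.5 and 12.6 FPKM in control and 4.65, 6.14 and 6.41 with the drug. All treated libraries lay well below all controls (-1.09 ± 0.12, adjusted p = 8.21e-04). SLC7A11, the cystine transporter that feeds glutathione synthesis, went from 39.5, 58.9 and 42.6 to 27.2, 20.98 and 28.4 FPKM (-0.84 ± 0.18). The arginine transporter SLC7A1 went from 51.7, 48.3 and 56.3 to 28.7, 38.2 and 38.2 FPKM (-0.57 ± 0.11), and the pseudokinase TRIB3, which restrains ATF4, from 83.6, 69.05 and 87.9 to 60.9, 55.01 and 51.9 FPKM (-0.51 ± 0.10). None of these overlapped between groups. The glycine transporter SLC6A9 (-0.63 ± 0.12), the serine synthesis enzyme PSAT1 (-0.46 ± 0.11), PCK2 (-0.43 ± 0.10) and the partner factor CEBPG (-0.37 ± 0.09) fell as well. ATF3, a stress factor that other pathways also induce, rose, from 22.3, 19.4 and 20.6 to 27.4, 28.5 and 27.2 FPKM (0.40 ± 0.07). Of 31 tested members 11 fell and 2 rose, with a median of -0.31. The counts were 17 and 2 without the 3 libraries that stood apart and 12 and 1 with the length trend removed. The mRNA of ATF4 itself was at -0.02 ± 0.11 (adjusted p = 0.919).

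The ASNS promoter is shown because it carries the amino acid response element of this pathway. TGATGNAA, the shared letters of the sites bound by ATF4 with C/EBP factors, was searched on both strands in the same windows. It was present in 13 of 237 promoters of genes that fell (5.49%), 1.7% of genes that rose, 1.58% of tested genes and 3.67% of all promoters. In the ATF4 list it was present in 5 of 25, of which SLC7A1, ATF3 and ASNS were called. The ASNS window lies at chr7:97872447-97872498 on the - strand and the ATF3 window at chr1:212565194-212565245 on the + strand, with matches starting 68 and 191 bases before the gene start.
ASNS: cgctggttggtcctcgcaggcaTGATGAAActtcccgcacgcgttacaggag
ATF3: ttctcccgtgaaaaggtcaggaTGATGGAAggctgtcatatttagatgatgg
These letters thus stood in the promoter of a gene that fell and of another that rose. Elements of the sterol and heat shock lists below were searched too. The sterol element (TCACNCCAC) was present in 1 of 19 promoters of its list, 0 of 4 called members and 1.08% of tested genes. Heat shock half-site pairs (TTCNNGAA or GAANNTTC) were present in 8 of 24, in 2 of 7 called members and in 9.71% of tested genes.

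Of 20 cytosolic aminoacyl-tRNA synthetases, which load amino acids on tRNA and many of which ATF4 controls, 2 rose and 2 fell. KARS (0.46 ± 0.09) and RARS (0.37 ± 0.10) were higher, and IARS (-0.38 ± 0.10) and WARS (-0.23 ± 0.06) lower, and RARS, IARS and WARS were called in 11 of 26, 13 of 26 and 10 of 26 alternatives. Without the 3 libraries that stood apart 2 rose and 8 fell, and with the length trend removed 1 rose and 3 fell. Chaperones and degradation factors of the endoplasmic reticulum tended to negative values, with 4 of 29 above 0 and a median of -0.16. EDEM1, which sorts misfolded glycoproteins for disposal, fell from 19.04, 21.6 and 18.4 to 12.5, 12.7 and 14.1 FPKM (-0.55 ± 0.08), and the disulfide isomerase PDIA4 fell (-0.29 ± 0.08, called in 12 of 26 alternatives). HSPA5, the main chaperone of that compartment, had 1655, 1808 and 1620.0 FPKM in control and 1885, 1454 and 1467 with the drug (-0.09 ± 0.10, adjusted p = 0.624). Without the 3 libraries that stood apart 10 of the 29 fell, and with the length trend removed 3 did.

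Part of the genes of protein turnover and folding in the cytosol rose. Of 35 proteasome genes 17 rose, 0 fell, and 34 were above 0, with a median of 0.38. The core subunit PSMB3 had 52.6, 46.1 and 49.3 FPKM in control and 100.1, 79.2 and 76.9 with the drug (0.77 ± 0.11). PSMD2, a scaffold of the regulatory cap, went from 42.2, 39.5 and 44.4 to 57.7, 63.1 and 55.6 FPKM (0.47 ± 0.08). The core subunit PSMB6 (0.57 ± 0.11), the cap subunit PSMD1 (0.37 ± 0.07) and the interferon-inducible activator PSME2 (0.49 ± 0.10) rose too. The number rising was 21 without the 3 libraries that stood apart, 9 with the length trend removed and 8 under quantile normalization. Of 26 heat shock genes 7 rose and 0 fell, with a median of 0.38. HSP90AB1, the constitutive cytosolic HSP90, went from 635, 628 and 608 to 982, 866 and 869.5 FPKM (0.54 ± 0.08). The inducible HSPA1B went from 13.9, 11.8 and 13.8 to 19.6, 24.3 and 19.97 FPKM (0.65 ± 0.12), a value that is uncertain because HSPA1A is a near-identical copy. The small chaperone HSPB1 (0.59 ± 0.11) and the cochaperones DNAJB1 (0.44 ± 0.07) and BAG3 (0.48 ± 0.09) rose. The number rising was 14 without the 3 libraries that stood apart, 5 with the length trend removed and 4 under quantile normalization.

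Part of the genes of glycolysis and the respiratory chain rose. LDHA, which turns pyruvate into lactate, had 48.95, 56.2 and 47.1 FPKM in control and 106, 79.7 and 79.8 with the drug (0.78 ± 0.11, adjusted p = 0.00456). The glycolytic enzymes GPI (0.65 ± 0.11), ALDOC (0.69 ± 0.12), PGAM1 (0.56 ± 0.07), PGK1 (0.50 ± 0.08) and ENO1 (0.51 ± 0.12) rose too, and 9 of 24 tested genes of the pathway rose with a median of 0.35. GAPDH, of the same pathway and often used as a constant reference, went from 354, 267 and 332 to 471, 467 and 455 FPKM (0.56 ± 0.11). The count was 13 without the 3 libraries that stood apart, 8 with the length trend removed and 5 under quantile normalization. Nuclear genes of the respiratory chain rose in 21 of 80, with 75 above 0 and a median of 0.38. COX5A, a subunit of cytochrome oxidase, went from 40.1, 36.1 and 41.9 to 68.02, 59.5 and 57.2 FPKM (0.63 ± 0.10), and ATP5F1B, of the ATP synthase, from 232, 218 and 218 to 347, 298 and 299 FPKM (0.49 ± 0.08). The number was 23 without the 3 libraries that stood apart, 16 with the length trend removed and 9 under quantile normalization. The 13 mRNAs encoded by mitochondrial DNA, which serve the same complexes, did not pass by limma or voom, with 0 at an unadjusted p under 0.05 and a median of -0.18.

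Of 26 genes of sterol synthesis and uptake 8 rose and 0 fell, with a median of 0.37. FDFT1, squalene synthase, had 15.2, 13.3 and 14.4 FPKM in control and 28.2, 24.3 and 25.6 with the drug (1.82-fold, 0.82 ± 0.08). INSIG1, which retains the sterol sensor in the endoplasmic reticulum, went from 3.92, 6.01 and 4.71 to 12.1, 8.59 and 9.03 FPKM (0.89 ± 0.14). The thiolase ACAT2 (0.54 ± 0.10) and the epoxidase SQLE (0.48 ± 0.09) rose. The number rising was 13 without the 3 libraries that stood apart and 7 with the length trend removed. Of 16 genes of fatty acid synthesis 1 rose and 0 fell, with a median of 0.11, and 3 rose and 1 fell without the 3 libraries that stood apart. Among 12 enzymes that remove peroxide and superoxide 6 rose, with a median of 0.39. SOD1 went from 65.9, 67.5 and 58.98 to 126, 91.6 and 89.8 FPKM (0.65 ± 0.12), and GPX4, which repairs oxidised lipids, from 78.5, 76.6 and 76.6 to 145, 116 and 99.1 FPKM (0.61 ± 0.11). Catalase, CAT (0.46 ± 0.08), GPX1 (0.65 ± 0.14) and PRDX1 (0.50 ± 0.11) rose too. Of the 12, 8 rose without the 3 libraries that stood apart and 5 with the length trend removed. FTL, the light chain of the iron store ferritin and the most expressed gene that rose by its mean over all 12 libraries, went from 1097, 964 and 1019 to 1932, 1587 and 1599 FPKM (0.73 ± 0.10).

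ANGPTL4, a secreted inhibitor of lipoprotein lipase that fatty acids and hypoxia induce, had the largest rise of all, from 3.39, 1.65 and 3.01 to 8.83, 11.3 and 8.96 FPKM (3.61-fold, 1.56 ± 0.18, adjusted p = 0.00127). The groups were far apart, and control 2 was the lowest library. Of 18 hypoxia genes 4 rose, with BHLHE40 (0.71 ± 0.08), ADM (0.67 ± 0.10) and NDRG1 (0.52 ± 0.10) beside ANGPTL4. The count was 7 without the 3 libraries that stood apart and 5 with the length trend removed. CYP24A1, which inactivates vitamin D, went from 29.2, 32.9 and 29.4 to 65.2, 60.96 and 67.2 FPKM (1.06 ± 0.08). ALDH1A3, which makes retinoic acid, went from 60.4, 59.8 and 56.1 to 120.4, 112 and 112 FPKM (0.96 ± 0.07). These 2 genes and SFN were also called in the fit on the 6 libraries of control and nab-paclitaxel alone. ARRDC3, an arrestin-like adaptor that sends receptors to degradation, went from 2.37, 2.79 and 2.105 to 6.93, 5.24 and 6.32 FPKM (1.06 ± 0.11), and its relative ARRDC4 rose too (0.73 ± 0.12). KRTAP2-3 had a change of 1.35 ± 0.13 and is uncertain because of its near copy KRTAP2-4.

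Part of the keratin, actin and urokinase genes rose. KRT19, the keratin that marks bile duct cells, had 247, 199 and 255 FPKM in control and 471, 472 and 408 with the drug (0.95 ± 0.12, adjusted p = 0.00226). Of 7 tested keratins 5 rose, KRT15 among them (0.59 ± 0.09). The number was 5 without the 3 libraries that stood apart, 2 with the length trend removed and 3 under quantile normalization. Actin genes, common as constant references, rose as well, ACTB from 401, 390.3 and 393 to 614, 525 and 506 FPKM (0.47 ± 0.08) and ACTG1 from 1155, 1214 and 1179 to 1916, 1548 and 1549 FPKM (0.49 ± 0.09). Of 34 genes of actin and its serum response factor program 8 rose, with TPM4 (0.53 ± 0.06) and FHL2 (0.53 ± 0.10) among them. The number was 16 without the 3 libraries that stood apart, 6 with the length trend removed and 2 under quantile normalization. EZR, which ties actin to the membrane, rose (0.38 ± 0.09). Of 8 genes of the urokinase system and serpins, which control breakdown of the matrix, 4 rose. The protease PLAU went from 17.02, 15.03 and 15.6 to 22.3, 25.1 and 24.3 FPKM (0.56 ± 0.10) and its receptor PLAUR from 5.55, 4.398 and 5.45 to 10.8, 8.34 and 8.39 FPKM (0.73 ± 0.12), with no overlap in either gene. Of the 8, 4 rose without the 3 libraries that stood apart and 3 with the length trend removed.

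Of 17 immediate early genes of the AP-1 group 6 rose and 0 fell (12 and 0 at an unadjusted p under 0.05), with a median of 0.38. FOSL1 went from 18.6, 15.2 and 19.2 to 30.1, 30.5 and 33.01 FPKM (0.79 ± 0.11) and FOS from 6.34, 4.73 and 7.05 to 10.5, 10.8 and 10.8 FPKM (0.75 ± 0.12), and 8 of the 17 rose without the 3 libraries that stood apart and 3 with the length trend removed. Targets of YAP, the effector of the Hippo pathway that senses cell shape, were mixed. Of 24, 4 rose and 2 fell. The matrix genes CTGF (0.45 ± 0.11) and CYR61 (0.45 ± 0.11, called in 13 of 26 alternatives) and the stress gene GADD45B (0.88 ± 0.18) were higher and the LIM protein AJUBA was lower (-0.34 ± 0.07). CTGF (adjusted p = 0.105) and CYR61 (adjusted p = 0.159) were not called with the length trend removed. The YAP counts were 5 and 2 without the 3 libraries that stood apart and 2 and 2 with the length trend removed. Of 18 clustered histone genes 6 rose and 1 fell. HIST1H1C (0.68 ± 0.12), HIST1H2BK (0.51 ± 0.09) and HIST1H2BD (0.51 ± 0.09) were higher. The counts were 5 and 1 without the 3 libraries that stood apart and 4 and 1 with the length trend removed. Histone genes have near-identical copies, so values of single genes are uncertain.

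Genes that handle the drug or its albumin carrier moved in small numbers. Of 6 tested transport and metabolism genes of paclitaxel 2 fell. ABCC2, an export pump of the apical membrane, went from 17.01, 17.3 and 16.5 to 14.1, 12.6 and 13.9 FPKM (-0.30 ± 0.07), and ABCC3 from 17.4, 13.3 and 16.5 to 9.95, 12.3 and 12.4 FPKM (-0.41 ± 0.11, called in 12 of 26 alternatives). ABCB1, the P-glycoprotein pump best known for taxane export, was at 2.12, 2.49 and 2.28 FPKM in control and 1.94, 2.02 and 2.33 with the drug, with overlap (-0.09 ± 0.11, adjusted p = 0.626). Of the 6, 2 fell without the 3 libraries that stood apart and 1 with the length trend removed. SPARC, a secreted protein that binds albumin, rose from 155, 138 and 148 to 194, 191 and 186 FPKM (0.37 ± 0.07), 1 of 5 tested genes of albumin uptake and binding.

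**Figure D4:**
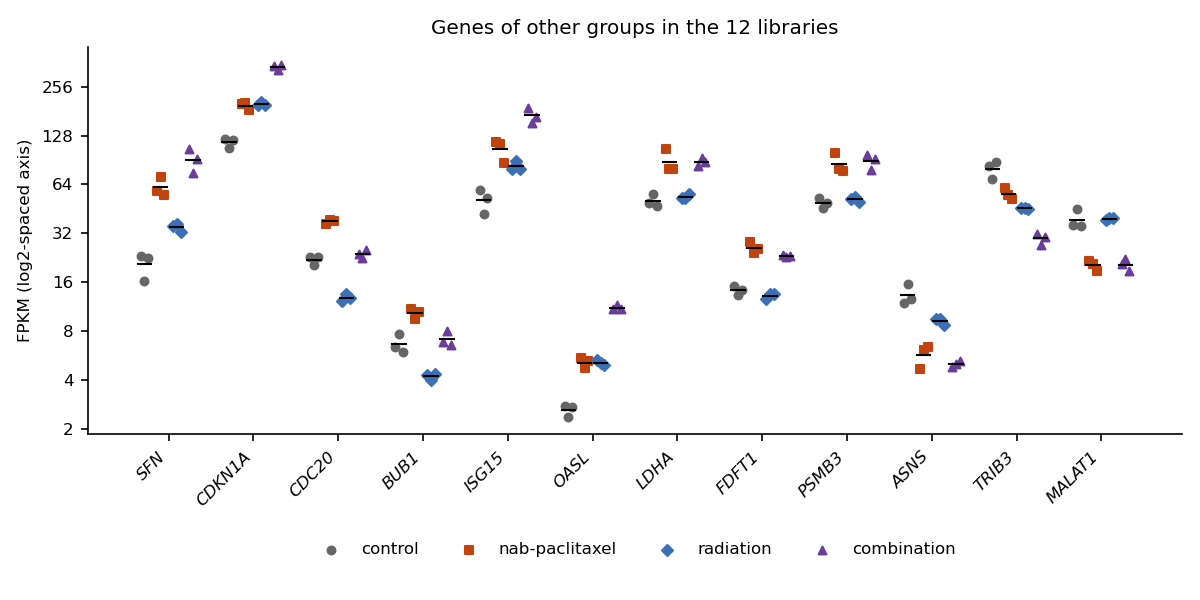
FPKM of 12 genes from several groups on a log2-spaced axis, 1 point per library and a bar at the mean of each group of 3. SFN sits at 16.2 to 23.1 in control and 54.8 to 70.8 with nab-paclitaxel, and ASNS at 11.98 to 15.5 and 4.65 to 6.41; the combination libraries sit at 74.9 to 106 and 4.84 to 5.22.

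The 15 largest falls among called genes of at least 2 FPKM in the control mean were all in genes that encode no protein. Of 2382 tested genes of other kinds 30 rose and 185 fell (7.77% of them), against 706 and 279 of the 11227 protein-coding genes (2.49% fell). The nuclear RNA MALAT1, which gathers at splicing speckles, had 35.8, 44.95 and 35.5 FPKM in control and 21.6, 20.7 and 18.8 with the drug (-0.89 ± 0.10, adjusted p = 0.00126). NEAT1, the scaffold of nuclear paraspeckles, went from 15.9, 14.9 and 14.1 to 10.3, 10.8 and 9.81 FPKM (-0.50 ± 0.08). In both, the groups lay apart by more than their own range, both were chosen after their values were seen, and NEAT1 was not called with the length trend removed (adjusted p = 0.134). SNORD11, a guide RNA for ribosomal RNA methylation, had 8.22, 9.304 and 4.72 FPKM in control and 1.51, 0.6799 and 0 with the drug, and the snRNA pseudogene RNU6-1191P had 4.11, 4.26 and 2.47 FPKM in control and was listed at 0 in all 3 treated libraries. Such short RNAs lack a poly(A) tail or lie within introns, and their values rest on few fragments. Together the snRNA, snoRNA, miscellaneous and sense intronic genes took 0.0629 ± 0.00392% (SD, n = 3) of fragments in control and 0.0434 ± 0.00426% with the drug, with ranges of 0.0591 to 0.0669 and 0.0385 to 0.0462. Antisense and lincRNA genes took 0.797 ± 0.00484% and 0.655 ± 0.0337%. Without strand information, reads of antisense genes and of the genes opposite them cannot be told apart.

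Several protein-coding genes fell as well. AKAP9, a very large scaffold of the centrosome and Golgi (-1.09 ± 0.13), DST, a giant linker of the cytoskeleton (-0.82 ± 0.14), NKTR, a cyclophilin with a splicing domain (-0.83 ± 0.13), and ATRX, a chromatin remodeller (-0.84 ± 0.13), fell. PABPC1L went from 43.4, 33.1 and 38.9 to 15.7, 20.1 and 19.5 FPKM (-1.02 ± 0.12). The phosphatase PTPDC1 (-0.86 ± 0.08), the cytokine receptor IL20RB (-0.97 ± 0.15) and the GABA-B receptor subunit GABBR1 (-0.77 ± 0.08) fell too. All of these protein-coding falls were picked after their values were seen, and all stayed called with the length trend removed (adjusted p from 4.38e-04 for PTPDC1 to 0.0163 for ATRX).

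Irradiated cells gave the same drug contrast in 6 libraries that share none with the comparison above. Both contrasts came from the same fit and shared each gene's estimate of spread, so their calls are not independent. There 4.81% of tested genes rose and 2.95% fell (654 and 401). Of the 1200 genes called without radiation 1172 had the same sign in irradiated cells (97.7%, against 79.4% of all tested genes). Called there with the same sign were 594 of them (49.5%, against 7.59% of all tested genes), and 0 with the opposite sign. Across the 13609 genes Pearson's r between both drug contrasts was 0.683, a description over genes that are not independent. The change was larger without radiation for 880 of the 1200, a count that selection on that contrast favours. In irradiated cells 7 of 10 tubulin genes rose, as did 19 of 35 proteasome and 16 of 28 interferon-stimulated genes. ISG15 reached 190.0, 154 and 167 FPKM with both treatments against 79.9, 88.9 and 79.4 with radiation (1.03 ± 0.15), and CDKN1A reached 341, 322 and 350.0 against 196, 205 and 198 (0.75 ± 0.08). In both genes the combination libraries were the highest of all 12.

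The test of whether the drug effect differed with radiation called 0 of 13609 genes (0% of those tested) by limma on log2(FPKM + 1) and 0 by voom, with 443 at an unadjusted p under 0.05. Some groups were called in smaller numbers in irradiated cells, such as heat shock (2 of 26) and the ATF4 list (4 of 31 fell), and no interaction of a member passed. HSPA1B changed by 0.65 ± 0.12 without and 0.06 ± 0.12 with radiation (interaction unadjusted p = 0.00508, adjusted p = 1.000), and FOS by 0.75 ± 0.12 and 0.06 ± 0.12 (interaction unadjusted p = 0.00148, adjusted p = 0.989).

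**Figure D5:**
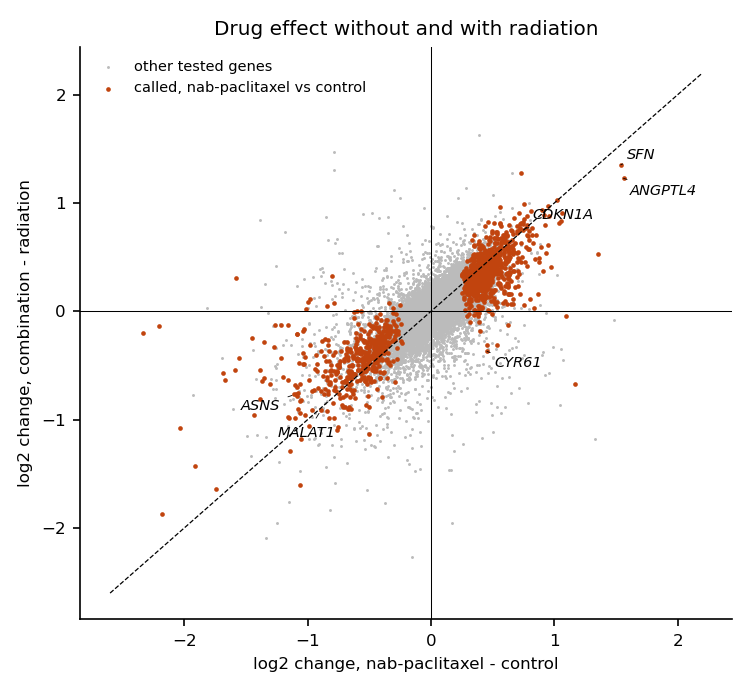
Log2 change of each tested gene with the drug without radiation (x axis) and with radiation (y axis), with genes called for nab-paclitaxel against control in colour and a dashed line of equal change. Of the 1200 coloured genes 1172 have the same sign on both axes, and CYR61 lies at 0.45 on the x axis and below 0 on the y axis.

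Set directly against radiation, nab-paclitaxel gave a different state. Of tested genes 10.6% were higher with the drug than with radiation (1436) and 5.58% lower (760). Mitotic genes had the highest called share of the lists, with 39 of 42 higher with the drug and a median of 0.97, and replication genes followed with 30 of 33 (0.76). With the drug against control these medians were 0.33 and 0.17. CDC20 was at 36.4, 38.8 and 38.3 FPKM with the drug and 12.3, 13.5 and 12.7 with radiation (1.49 ± 0.08, adjusted p = 6.26e-06). TUBB was at 210.3, 192 and 199 FPKM with the drug and 87.5, 84.2 and 86.3 with radiation (1.21 ± 0.07, adjusted p = 1.01e-05). Both genes had no overlap between the 2 treatments, and their control libraries lay between them. The contrast thus holds lower values with radiation as well as higher values with the drug. CDKN1A did not differ beyond its error between them (-0.03 ± 0.08, adjusted p = 0.820), nor did OASL (0.01 ± 0.08, adjusted p = 0.967). PLK2 was lower with the drug (-0.34 ± 0.07), as was HIST1H2BD (-0.63 ± 0.09), and 6 of 18 histone genes were lower and 0 higher. Of 26 repair genes of homologous recombination and the Fanconi pathway 8 were higher with the drug than with radiation, whereas 0 rose and 1 fell with the drug against control. Genes of the ATF4 list were higher in 6 of 31 and lower in 1, ASNS being the lower (-0.61 ± 0.12).

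In genome build hg38, by the GENCODE annotation of the deposited table, whose spans cover every transcript and can start upstream of the RefSeq start (as in ISG15), the genes this account leans on are TUBB4B (ENSG00000188229, chromosome 9, 137241213 to 137243707, + strand), CDC20 (ENSG00000117399, chromosome 1, 43358955 to 43363203, + strand), SFN (ENSG00000175793, chromosome 1, 26863138 to 26864457, + strand), ISG15 (ENSG00000187608, chromosome 1, 1001138 to 1014540, + strand), ASNS (ENSG00000070669, chromosome 7, 97852118 to 97872542, - strand), ANGPTL4 (ENSG00000167772, chromosome 19, 8363289 to 8374373, + strand) and MALAT1 (ENSG00000251562, chromosome 11, 65497688 to 65506516, + strand).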

How the data were processed

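RNA libraries were made with an mRNA sequencing kit, per the labels' protocols, and the authors deposited FPKM per gene for 12 libraries on hg38, per the submitters' processing notes. The gene identifiers are those of GENCODE 29. No source used here names the aligner, the counter or the strand setting. Deposited FPKM values corresponded to whole fragments within 0.05 for 100% of values, which gave 14840283 to 17992242 fragments a library, so low genes carry the most counting error. The deposited FPKM used a median-ratio size factor over all libraries in place of each total, as the values show. Genes averaging 1 FPKM or more across all 12 libraries were fitted as log2(FPKM + 1) with limma 3.58.1 (R 4.3.3, empirical Bayes with trend), all 4 groups sharing the spread, and Benjamini-Hochberg adjustment over 13609 genes for each contrast. The code was tested on simulated data. Alternatives changed scaling, filter, pseudocount, model, libraries, and trends on gene length or GC (loess span 0.3).

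The comparison and the gene lists were chosen with earlier results of these data known. Named genes were the 15 largest rises and falls among called genes without overlap that averaged 2 FPKM or more where higher, up to 5 called genes of smallest p from each list (else the 2 of highest mean), 5 each way for the other contrasts, the most expressed called genes, and ACTB, GAPDH, CDKN1A, MDM2, GDF15 and TUBB. Chosen after their values were seen were ABCB1, AKAP9, ATF4, ATRX, CCNB2, CEBPG, CENPE, CENPF, DST, ENO1, GABBR1, HSPA5, IFIT1, IFITM1, IFITM3, IL20RB, MALAT1, NEAT1, NKTR, PABPC1L, PCK2, PTPDC1, TUBA1B, TUBB3, TUBB4A and TUBB6. Some genes that this rule names are not reported here.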

Additional observations from a re-analysis of the deposited data

Results flagged for a closer look

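In 3 named genes the sign of the drug contrast differed without and with radiation, with the 3 treated libraries above all controls and the 3 combination libraries below all radiation libraries. CTGF, a matrix protein and YAP target, had 19.4, 20.3 and 17.7 FPKM with radiation and 15.5, 14.4 and 15.9 with both, and an interaction of -0.759 on the log2 scale (unadjusted p = 3.91e-04, limma adjusted p = 0.989). CYR61, its relative, had 15.6, 18.1 and 17.2 and 14, 11.1 and 13.7 FPKM and an interaction of -0.824 (unadjusted p = 2.77e-04, limma adjusted p = 0.989). TNFSF9, a costimulator of T cells, had 61.96, 63.3 and 60.1 and 55.3, 51.7 and 56.4 FPKM and an interaction of -0.574 (unadjusted p = 5.28e-04, limma adjusted p = 0.989). None of these interactions passed the adjusted threshold, and the lower values in irradiated cells were not called either (-0.31 ± 0.11, adjusted p = 0.106 for CTGF; -0.37 ± 0.11, adjusted p = 0.0678 for CYR61; -0.18 ± 0.09, adjusted p = 0.214 for TNFSF9).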

How the results depend on the processing

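With 3 libraries a group the number of genes called depended on the setting, and the cause was not tested. For nab-paclitaxel against control (1200) it was 2916 with the GC trend removed, 579 without a filter, 8 in the fit on these 2 groups alone, 789 under quantile normalization and 1836 without control 2, nab-paclitaxel 1 and combination 2; leaving out single libraries gave 524 to 1181, with 783 without control 1, 524 without control 3, 718 and 638 without nab-paclitaxel 1 and 2, and 725, 717 and 749 without radiation 1, 2 and 3. For the drug in irradiated cells (1055) these were 2782 with the GC trend removed, 577 without a filter, 2502 with 2 groups alone, 4128 without the 3 libraries, and 218 (without combination 3) to 1879 (without nab-paclitaxel 1) leaving out single libraries. The interaction called 5 without a filter. Nab-paclitaxel against radiation (2196) gave 3910 with the GC trend removed, 4077 without the 3 libraries, and 951 (without radiation 1) to 2806 (without control 2). With mean FPKM of at least 5, 77.6% of calls were rises (750 and 216), and with 2 groups alone 37.5%. With the replicate block 701 genes were called for nab-paclitaxel against control and 606 in irradiated cells; same-numbered control and nab-paclitaxel libraries correlated at -0.244, -0.492 and 0.172, so the numbers were not taken as pairs. MDM2 (-0.135 to 0.0691 leaving out single libraries) turned positive at 0.0739 with the length trend removed, 0.0691 without control 2 and 0.0383 without the 3 libraries, and TUBB3 (-0.0945 to 0.0947) at 0.089 under quantile normalization, 0.0863 without control 3, 0.0947 without nab-paclitaxel 1 and 0.0119 without the 3 libraries. Over 52 gene lists the median kept its sign in 51 with size factors and 46 under quantile normalization. Low fragment numbers limit short and weakly expressed genes.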

Other observations

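Further gene groups had the following calls with nab-paclitaxel against control, beside 5.41% rising and 3.41% falling over all tested genes. In the highest expression group of protein-coding genes 14.6% rose, and the median member of each list in this paragraph lies in that group. Of 35 lysosome genes 4 rose and 0 fell, with a median of 0.18, among them the protease CTSB, from 62.3, 52.9 and 60.98 to 75.98, 76.1 and 72.8 FPKM (0.35 ± 0.08), and the galactosidase GLA (0.62 ± 0.09). Of 40 genes of secretory transport 3 rose (median 0.18), and of 30 of ribosome biogenesis 2 did (median 0.16). Without the 3 libraries that stood apart 9, 8 and 2 genes of these lists rose, and with the length trend removed 4, 2 and 2. All 9 tested S100 proteins, small calcium sensors, had positive values and 2 rose, S100A11 from 98.8, 91.1 and 85.7 to 166, 120.1 and 132 FPKM (0.59 ± 0.11). Of 23 targets of the oxidative stress factor NRF2, 3 rose and 2 fell, and the quinone reductase NQO1 was at 0.35 ± 0.09 (called in 13 of 26 alternatives). The NRF2 counts were 6 and 2 without the 3 libraries that stood apart and 1 and 2 with the length trend removed. Among 14 genes of the epithelial-mesenchymal list 2 rose and 1 fell, with the adhesion protein CDH1 at -0.29 ± 0.07 (called in 14 of 26 alternatives) and its repressor SNAI1 at 0.49 ± 0.11. Those counts were 2 and 2 without the 3 libraries that stood apart and 1 and 1 with the length trend removed.

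None of 81 cytosolic ribosomal protein genes passed by limma or voom, with 4 at an unadjusted p under 0.05 and a median of 0.18, whereas 42 of them were higher with the drug than with radiation. None of 6 metallothioneins passed by limma or voom, with 2 at an unadjusted p under 0.05. Of 281 zinc finger genes named ZNF, 4 rose and 6 fell. NDUFA2, a small subunit of respiratory complex I, changed by 0.63 ± 0.11.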
